A study of Mus musculus with 16 samples.

Results

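The genes described here are the carboxylesterases Ces1c, Ces1d, Ces1e, Ces1f, Ces1g, Ces2a, Ces2b, Ces2c and Ces2e and the arylacetamide deacetylase Aadac in mouse small intestine. They were chosen by name, with earlier results of these data known, as rows whose symbol was on a list of Ces1 and Ces2 genes plus Aadac. They make up 10 of the 24420 features of each table. RNA was read by 3′ tag sequencing, which reads transcripts at their 3′ end whatever their length, so levels of different genes are compared without a length correction. The first experiment held isolated enterocytes, which absorb nutrients across the gut lining, from 4 libraries labelled WT and 5 labelled Mfge8 KO. The second held small intestine from 4 libraries labelled WT and 3 labelled Cd36 KO. All 16 libraries were of strain C57B6. The labels used here give no age, sex, diet, other allele or treatment, nor the deleted part of either gene, and do not say that the libraries of a group came from separate animals. P-values therefore measure the spread between libraries, which may be technical.

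Carboxylesterases are serine hydrolases of the endoplasmic reticulum that split ester bonds, in drugs and prodrugs as well as in triglycerides, cholesteryl esters and other lipids. In mice the Ces1 and Ces2 genes were multiplied by tandem duplication. CES1 enzymes are best known from liver, while CES2 enzymes are the main carboxylesterases of the gut epithelium. AADAC is a membrane enzyme of the endoplasmic reticulum that removes acetyl groups from arylamide drugs and is related to hormone-sensitive lipase. MFGE8 is secreted and acts through integrins. CD36 sits in the cell membrane and takes part in fatty acid uptake. The comparisons ask how these hydrolase transcripts differ where Mfge8 or Cd36 is missing.

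On the mm10 assembly, the 5 Ces1 genes lie in 1 run on the minus strand of chromosome 8, from 93099015 to 93337209. The 4 Ces2 genes lie on the plus strand of the same chromosome, from 104734003 to 104934672. Aadac stands apart on the plus strand of chromosome 3, from 60031788 to 60040157. Ces2a and Ces2e, the members with the most reads in WT enterocytes, are the outermost of the 4 Ces2 members, with 185 kb and both Ces2b and Ces2c between them. Ces2g, a further Ces2 gene, follows Ces2e on the same strand. RefSeq promoter sequences, 250 bases before to 50 after the gene start, were at hand for 7 of the 10 members. The promoters of Ces2a and Ces2e are printed because Ces2a fell in the enterocyte comparison below while Ces2e, of related sequence, was not called. Capitals mark the 3 runs of at least 10 bases that both share exactly, 40 bases in all with the longest run at 17. Both are read 5′ to 3′ on the plus strand of GRCm38.p6, Ces2a at chr8:104733753-104734052 and Ces2e at chr8:104926010-104926309.
Ces2a: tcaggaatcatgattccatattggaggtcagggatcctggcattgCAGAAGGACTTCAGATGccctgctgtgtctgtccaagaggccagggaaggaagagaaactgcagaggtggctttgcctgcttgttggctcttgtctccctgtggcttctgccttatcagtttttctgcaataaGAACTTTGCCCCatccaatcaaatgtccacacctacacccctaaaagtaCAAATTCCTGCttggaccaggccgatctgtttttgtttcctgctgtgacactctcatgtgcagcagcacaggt
Ces2e: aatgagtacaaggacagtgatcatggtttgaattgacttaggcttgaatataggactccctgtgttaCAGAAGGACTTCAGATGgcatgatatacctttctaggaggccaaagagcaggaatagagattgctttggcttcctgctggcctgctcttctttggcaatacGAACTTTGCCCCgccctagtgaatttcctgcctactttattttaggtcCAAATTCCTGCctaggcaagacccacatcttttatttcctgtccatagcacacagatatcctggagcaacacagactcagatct
Over the whole window the pair was 54.9% identical, against 65.0% for Ces2a and Ces2c. The letters AGGTCA, the core that many nuclear receptors bind, were searched on either strand and found in Ces2a at base -226 from the gene start, and in no other of the 7 member promoters. They occur in 16.3% of 32851 mouse promoters of this length. The letters CAAAGTC, a core bound by HNF4, and GTTAAT, bound by HNF1, were in none of the 7, and occur in 4.44% and 7.10% of all promoters. TATAAA was found in Ces1g at base -26 on the strand opposite to the gene, so that the gene's own strand reads TTTATA there, and on either strand it occurs in 13.6%. Only exact letters were searched, so near matches were not counted. A match of letters describes the sequence and is not a measured binding site.

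Depth ranged from 1618369 to 2459812 gene reads in enterocytes and from 850297 to 1000694 in intestine. Levels are normalised read counts, with a single size factor for each library. Each experiment has a table and a normalisation of its own, so tests stay within a table. Mfge8 stood at 7.94 to 23.4 normalised reads in WT enterocytes and at 1.64 to 7.5 in Mfge8 null enterocytes, so reads of the targeted gene were lower but not gone. Cd36 stood at 111 to 116 in WT intestine and at 6.48 to 16.0 in Cd36 null intestine. Whether the 3′ tags lie inside the deleted parts is not given in the sources used here. Enterocyte libraries of 1 genotype differed well beyond counting noise, as chi-square divided by its degrees of freedom was 6.26 to 20.2 in 16 pairs. In 9 such pairs of intestine libraries it was 0.987 to 1.117. In 5 of the 9 pairs the chi-square test gave a p under 0.05, the lowest 2.41e-12, so most pairs did exceed counting noise. Because the ratio stayed close to 1 in each pair, each genotype was counted as 1 sample in intestine and no p-value is given.

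In WT enterocytes Ces2e, Ces2a and Aadac held nearly all of the reads of these genes. Ces2e, formerly Ces5, took 52.5% of them on average, Ces2a, formerly Ces6, took 32.4%, and Aadac took 11.0%. Ces1f, also known as TGH-2, followed with 2.05%. Mean normalised reads were 2174 ± 594 for Ces2e, 1344 ± 414 for Ces2a, 476 ± 209 for Aadac, 86.6 ± 44.4 for Ces1f, 33.2 ± 18.1 for Ces1e and 30.9 ± 13.9 for Ces1d (SD, n = 4). The ranges of Ces2e and Ces2a overlapped, although Ces2e was above Ces2a within each library. Ces1f, Ces1e and Ces1d overlapped as well. Ces2c at 7.87 ± 4.27, Ces2b at 7.27 ± 0.405, Ces1g at 5.64 ± 3.23 and Ces1c at 2.83 ± 1.80 were all low. Every WT library of Ces2b lay above every one of Ces1c, and the other pairs of these 4 overlapped. Together the 10 genes took 0.145% to 0.294% of all reads in WT and 0.0829% to 0.172% in Mfge8 null enterocytes.

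**Figure D1:**
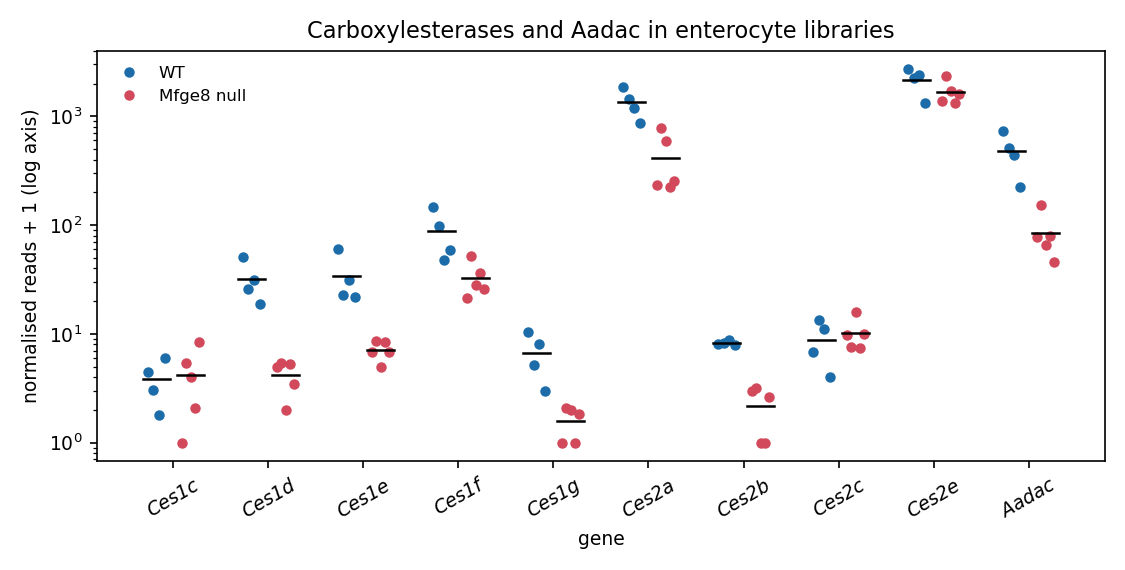
Normalised read counts of the 10 genes in the 9 enterocyte libraries, on a log axis, with 1 dot per library and a black line at each group mean (WT blue, Mfge8 null red). Aadac, Ces1d, Ces1e and Ces2a have their null dots below the WT dots, while the dots of Ces2e and Ces2c overlap.

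Aadac, Ces1d, Ces1e, Ces1f and Ces2a were called lower in Mfge8 null enterocytes, and none of the members was called higher. Of the 10 members, 8 had enough reads to be tested, 5 were called lower by limma at a Benjamini-Hochberg adjusted p under 0.05, 3 were tested and not called, and 2 were not tested. Over all 9432 genes tested, 154 or 1.63% were called lower and 149 or 1.58% higher. Of the 5 called, Ces1d had entered only through its WT libraries. This leaves 4 (Aadac, Ces1e, Ces1f and Ces2a) to be read against that share. The share over all genes leaves out no gene that entered in this way. The members were chosen with earlier results of these data known, so their count is no independent support. In these bulk libraries, fewer cells of a type and less RNA per cell cannot be told apart. Ces2b, not called, entered in the same way as Ces1d, with no null library at the minimum value of 5.

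Aadac gave the lowest adjusted p of the members. Its normalised reads were 728, 509, 444 and 221 in WT 1 to 4, and 76.4, 153, 64.9, 78.2 and 45.1 in null 1 to 5. Every null library was below every WT library. The mean fell from 476 ± 209 (SD, n = 4) to 83.6 ± 41.2 (SD, n = 5), which is 17.6% of WT. On the log2 scale this was -2.49 (standard error 0.32), with an adjusted p of 0.000304 by limma.

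Ces2a, a CES2 enzyme of the gut, fell to 31.0% of its WT level. The WT libraries held 1852, 1455, 1199 and 871 normalised reads, and the null libraries 233, 788, 586, 225 and 253. The groups did not overlap, although null 2 at 788 came close to WT 4 at 871. On the log2 scale this was -1.84 (standard error 0.34), with an adjusted p of 0.00541 by limma, and limma fitted without a trend gave an adjusted p of 0.0609.

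Ces2e, the most abundant member, was not called. Its WT libraries held 2701, 2257, 2412 and 1326 normalised reads, and the null libraries 1375, 2355, 1703, 1335 and 1601. WT 4 was the lowest of all 9 libraries, so the groups overlapped. The null mean of 1674 ± 410 (SD, n = 5) was 77.0% of WT, with a log2 change of -0.36, a standard error of 0.21 and an adjusted p of 0.444 by limma. A p that misses the threshold does not show that the level was equal.

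Because both enzymes were abundant in each library, Ces2a could be set against Ces2e within a library. The ratio needs no size factor, and it was not tested. In WT enterocytes there were 68.6, 64.4, 49.7 and 65.6 reads of Ces2a per 100 reads of Ces2e. In null enterocytes there were 17.0, 33.5, 34.4, 16.8 and 15.8. The highest null ratio was below the lowest WT ratio. The ratio of Aadac to Ces2e did not overlap either. It was 27.0, 22.6, 18.4 and 16.7 reads per 100 of Ces2e in WT and 5.56, 6.52, 3.81, 5.85 and 2.82 in null libraries. The ratio of Ces1f to Ces2e did overlap, as null 2 at 2.19 and null 4 at 2.65 lay above WT 3 at 1.95. Reads of Ces2a per 100 of Aadac overlapped as well, at 254 to 393 in WT and 288 to 903 in null libraries. How often other genes have a ratio to Ces2e without overlap was not tested. In intestine, a tissue sample normalised and prepared apart, the ratio of Ces2a to Ces2e was lower in each genotype than in any enterocyte library. It was 7.64, 6.42, 7.65 and 8.42 in WT and 6.81, 5.17 and 6.55 in Cd36 null.

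**Figure D2:**
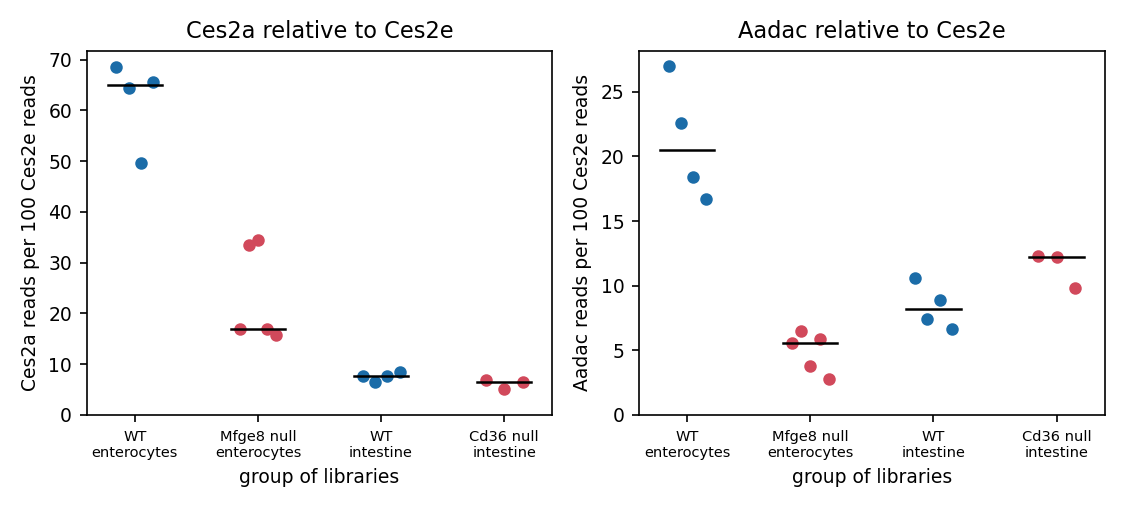
Reads of Ces2a and of Aadac per 100 reads of Ces2e in each library of the 4 groups, with a black line at the group median. In enterocytes the null ratios of Ces2a, 15.8 to 34.4, lie under the WT ratios, 49.7 to 68.6.

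The Ces1 genes were less abundant. Ces1e and Ces1f were called lower, as was Ces1d, which had entered the test only through its WT libraries. Ces1d, the triacylglycerol hydrolase formerly called Ces3, stood at 50.3, 25.0, 30.6 and 17.9 normalised reads in WT and at 3.92, 4.38, 0.999, 4.28 and 2.46 in null libraries. All null libraries were below all WT libraries. The mean fell to 10.4% of WT, with a log2 change of -2.92, a standard error of 0.41 and an adjusted p of 0.000599 by limma. The null libraries held 1 to 4 reads each, so the size of this fall is poorly set. With no minimum value applied, its adjusted p by limma was 0.000996.

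Ces1e, or egasyn, anchors beta-glucuronidase in the endoplasmic reticulum. It stood at 59.6, 21.8, 30.6 and 20.8 normalised reads in WT and at 5.88, 7.67, 4.0, 7.5 and 5.74 in null libraries. Again the groups did not overlap. The mean fell to 18.5% of WT, with a log2 change of -2.15, a standard error of 0.35 and an adjusted p of 0.00228 by limma.

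Ces1f stood at 145, 96.7, 47.0 and 57.6 normalised reads in WT and at 20.6, 51.5, 27.0, 35.3 and 24.6 in null libraries. Null 2 lay above WT 3, so 4 of 5 null libraries were below all WT libraries. The mean fell to 36.7% of WT, with a log2 change of -1.35, a standard error of 0.32 and an adjusted p of 0.0277 by limma. This call depended on single libraries, since leaving out WT 1, WT 2, null 1, null 3 or null 5 moved the adjusted p to 0.120, 0.0952, 0.0664, 0.0712 and 0.0668.

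Ces2b, Ces1g, Ces2c and Ces1c had few reads. Ces2b stood at 7.01, 7.28, 7.84 and 6.95 normalised reads in WT and at 1.96, 2.19, 0, 0 and 1.64 in null libraries. These groups did not overlap, but the adjusted p of limma was 0.0532 for a log2 change of -2.12 with a standard error of 0.57. Ces1g, an enzyme studied in liver lipid metabolism, had 23 reads over the 4 WT libraries and 3 reads over the 5 null libraries, and every null value was below every WT value. It was too low for the test, and gave a log2 change of -2.0 and an adjusted p of 0.0397 by limma when no minimum was applied and 15144 genes were tested.

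Ces2c stood at 5.85, 12.5, 10.2 and 2.98 normalised reads in WT and at 8.82, 6.58, 15, 6.42 and 9.02 in null libraries, with a log2 change of 0.29 and an adjusted p of 0.804 by limma. Its direction was not stable, since it was -0.051 without WT 4. Ces1c, which rodents secrete into plasma, held 0 to 9 reads per library and was not tested. Reads of both carry doubt, because 35.7% of the 50-base stretches in the last 500 bases of the Ces2c transcript also occur in Ces2b, Ces2d-ps or Ces2e, and 25.1% of those of Ces1c occur in Ces1b. The same share was 9.98% for Ces2a, 2.22% for Ces1f, 1.77% for Ces1d, and 0 for Ces1e, Ces1g, Ces2e and Aadac. Over all tested genes, 290 or 3.07% had all null libraries below all WT libraries. Aadac, Ces1e and Ces2a did so too, as did Ces1d and Ces2b, for which the filter had fixed the direction.

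**Figure D3:**
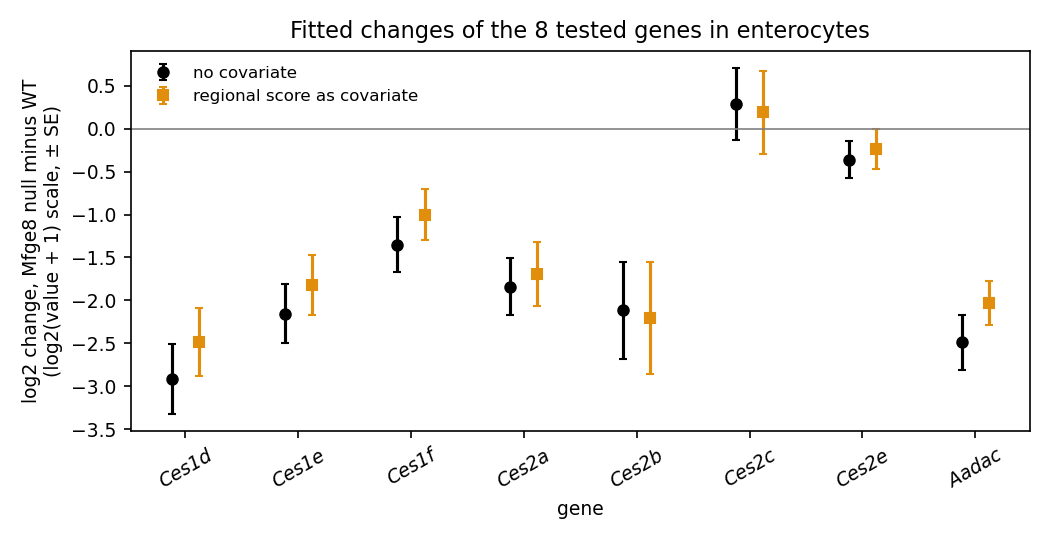
Log2 change of each tested member in Mfge8 null against WT enterocytes on the log2(value + 1) scale, with bars of 1 standard error, fitted with and without a score of intestinal region as covariate. Aadac, Ces1d, Ces1e and Ces2a lie between -2.92 and -1.70 in both fits, while Ces2e at -0.36 and Ces2c at 0.29 in the fit without the score lie nearer to 0.

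Within each genotype, most of the tested members shared the library in which their normalised value was highest. WT 1 was the highest WT library for 6 of the 8 tested members, against 27.9% of all genes tested, and WT 4 was the lowest for 7, against 29.3%. Null 2 was the highest null library for 7, against 22.1%. For Ces1d, Ces1e and Ces2b, however, null 2 tied in reads with other null libraries, at 4, 7 and 2 reads. Only its size factor set it highest there. For Ces1e, WT 4 tied with WT 2 at 21 reads, and for Ces2b it held 7 reads against 6 in WT 1. A score of intestinal region, the mean of 3 proximal markers less that of 5 ileal markers, followed a like order in WT, at 2.03, 0.55, 0.57 and -0.60 in WT 1 to 4. In the null libraries it was -0.56, 0.45, -1.47, 1.32 and -2.15, so that null 2 was second to null 4. Among the markers themselves, 1 of 3 tested proximal genes was called, Onecut2, which fell, and 1 of 5 ileal genes, Slc51b, which rose. The others were not called. Proximal Lct changed by -0.65 and ileal Slc51a, Slc10a2 and Fabp6 by 0.58, 1.11 and 0.57 on the log2 scale. Proximal Gata4 at 0.25 and ileal Osr2 at -0.17 went the other way. With this score as a covariate, Aadac stood at -2.03, Ces1d at -2.49, Ces1e at -1.82 and Ces2a at -1.70 on the log2 scale, all still called by limma, while Ces1f at -1.0 had an adjusted p of 0.129. Leaving out null 3 and null 5, the libraries with the lowest scores, kept the same 4 calls. The score itself holds Onecut2 and Slc51b, which were called between the genotypes. The part of intestinal region in the falls of the members was not tested.

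Markers of cell types were read beside these results. None of 10 enterocyte markers was called, and their median log2 change was 0.16. Summed T cell and intraepithelial lymphocyte markers were 1135 to 3384 normalised reads in WT and 3148 to 7353 in null enterocytes, with 0 of 8 called and a median change of 0.96. Of the B and plasma cell markers, 1 of 4 tested rose, Jchain, from 58.5 ± 43.1 (SD, n = 4) to 294 ± 126 (SD, n = 5). Their part in the carboxylesterase differences was not tested. Markers of hepatocytes, which hold much CES1, were near 0: Alb, Fgb, Fga and Ahsg had no reads, and all 8 summed to 3.12 to 8.18 in WT and 0.979 to 7.38 in null libraries. Of the adipocyte markers, 4 of 5 had no reads. Goblet, Paneth, crypt and macrophage markers held 0 called genes.

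Among the other carboxylesterases and their relatives, Ces2g and Bche fell. Of 16 listed relatives, 15 had a row and 4 were tested. Ces2g fell from 125 ± 83.8 (SD, n = 4) to 34.6 ± 23.7 (SD, n = 5), with a log2 change of -1.86 and an adjusted p of 0.0223 by limma. Bche, butyrylcholinesterase, fell from 283 ± 89.5 to 133 ± 65.3, with a log2 change of -1.14 and an adjusted p of 0.0349 by limma. Nceh1 and Afmid were not called. The list's median log2 change was -0.56, against 0.00 over all genes tested.

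Genes of drug metabolism formed the group with the most calls among the lists of other pathways. This was also the longest list, and the lists were chosen with earlier results of these data known. Of 33 tested, 13 were called lower and 0 higher, with a median log2 change of -1.07. Over all genes tested, 1.63% were called lower and 1.58% higher. The 13 include Gsta1, a glutathione transferase, at -2.60, Cyp3a11 at -1.93, Cyp3a25 at -1.32 and Adh1, an alcohol dehydrogenase, at -1.51. The other 9 were Cyp2c29, Cyp2c55, Cyp2d26, Cyp2j6, Aldh1a1, Gsta4, Gstm1, Ugt2b36 and Sult1d1. Ugt2b36 passed the minimum of 5 through its WT libraries, the lowest at 7.94, as its null median was 4.28. Of 20 receptors and transcription factors of drug and lipid response, Ppara, which senses fatty acids, fell from 95.3 ± 21.7 to 49.0 ± 14.3, and Cebpa fell from 119 to 65.3. Nr1i2, the xenobiotic receptor PXR, had means of 355 and 320, and Hnf4a means of 398 and 533, neither called. Of 13 other neutral lipid hydrolases only Pnliprp2 was called, rising from 13.2 to 35.3, and 0 of 14 genes of lipoprotein assembly and triglyceride synthesis were called.

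Across the 9 enterocyte libraries, 5 genes outside the set ran most like the mean standardised profile of the 8 tested members, out of 6580 genes with a mean of at least 20. They were Ppara with a Pearson r of 0.98, Cyp2j6 with 0.98, Rdh7, a retinol dehydrogenase, with 0.98, Sephs2 with 0.97, and Hsd17b13, a lipid droplet protein, with 0.97. After the genotype means were subtracted, r was 0.95, 0.95, 0.91, 0.87 and 0.88. The members' own r with that profile was 0.98 for Aadac, 0.94 for Ces2a, 0.91 for Ces1e and Ces1d, 0.89 for Ces1f, 0.83 for Ces2b, 0.82 for Ces2e and -0.03 for Ces2c. With the genotype means subtracted it was 0.97 for Ces2e, 0.90 for Aadac, 0.78 for Ces2a, 0.68 for Ces1f, 0.58 for Ces1e, 0.54 for Ces1d, 0.40 for Ces2c and 0.28 for Ces2b. The order thus differed, with Ces2e first once genotype was taken out. That order is partly set by construction, since each member is part of the profile. Values were standardised over all 9 libraries before the means were subtracted. Members with a large genotype difference, unlike Ces2e, thus weigh less in the subtracted profile. These values describe 9 libraries that share their preparation and genotypes, and carry no test.

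In small intestine Ces2e again led, but Ces2a was not second by mean share. Ces2e took 79.6% of the reads of the 10 genes in WT and 79.5% in Cd36 null intestine. In WT it was followed by Aadac with 6.67%, Ces1f with 6.13% and Ces2a with 5.99%, whose shares overlapped between libraries. In Cd36 null intestine Aadac took 9.10%, Ces2a 4.91% and Ces1f 4.65%, and the shares of Ces2a and Ces1f overlapped. In CPM, reads scaled to a common library total, mean Ces2e was 1170 in WT enterocytes and 1127 in WT intestine, whereas Ces2a was 725 and 84.7, Aadac 255 and 95.2, Ces1d 16.6 and 2.29, and Ces1f 46.8 and 86.9. These are different preparations sequenced at different depths, so the order within each is given and no test was made. The ileal gene Fabp6 was at 313 and the proximal gene Lct at 495 CPM in WT intestine, against 1398 (22.9 to 5137) and 2189 (1224 to 2925) in WT enterocytes. Smooth muscle and fibroblast markers summed to 19.2 to 34.3 normalised reads in WT intestine and 11.8 to 13.9 in Cd36 null, so the defining markers of the gut wall were nearly absent from samples labelled small intestine.

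Within the intestine experiment no member passed the fold rule, a ratio of at least 1.5 either way with no overlap of libraries. Of 9314 genes within the filter, 528 or 5.67% passed it, and 6 members were within the filter. Ces1f stood at 86.4, 73.3, 76.9 and 71.8 normalised reads in WT and at 47.1, 55.4 and 60.1 in Cd36 null libraries. Ces2a stood at 79.7, 65.1, 76.9 and 79.0 in WT and at 64.2, 46.9 and 61.1 in null libraries. In both genes every null library was below every WT library, as for 737 or 7.91% of all genes. Summed reads were 70.0% of WT for Ces1f (95% counting interval 57.6% to 84.7%) and 77.0% for Ces2a (63.6% to 92.9%). The intervals cover counting error only.

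Ces2e was 92.7% of WT (88.3% to 97.3%), from 938 to 1044 normalised reads in WT and 906 to 943 in null libraries, and Aadac was 125% of WT (107% to 146%), from 62.6 to 110 in WT and 91.6 to 116 in null. The libraries overlapped in both. Ces1e was 63.1% (31.6% to 121%) and Ces2b 108% (63.3% to 182%), on 30 against 15 and 34 against 29 reads. Ces1d had 8 against 7 reads and Ces1g 4 against 9, both outside the filter. Ces1c had 0 reads in WT, which allows up to 0.857 CPM, against 6 in Cd36 null. Ces2c had 2 reads in WT and 0 in null, which allows up to 1.06 CPM. These 4 genes were too low for the fold rule.

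**Figure D4:**
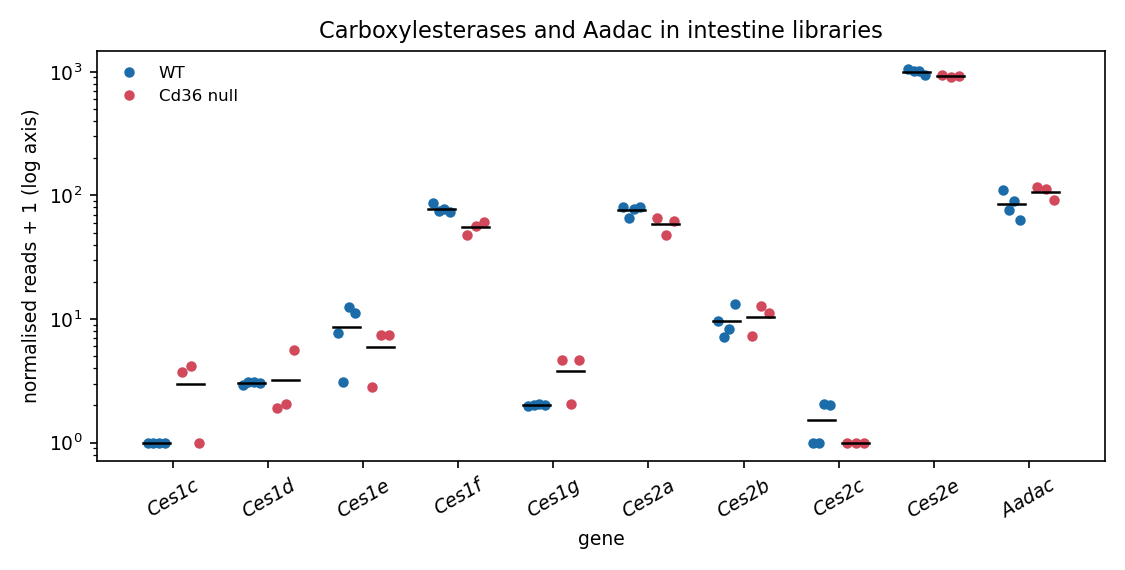
Normalised read counts of the 10 genes in the 7 intestine libraries, on a log axis, with 1 dot per library and a black line at each group mean (WT blue, Cd36 null red). The null dots of Ces1f and Ces2a lie below the WT dots, and those of Aadac and Ces2e overlap them.

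Related genes were read in Cd36 null intestine as well. Ces2g had means of 57.6 and 47.5 and Bche of 119 and 149, neither past the rule, and 1 of 32 drug metabolism genes, Cyp1a1, passed it. Among other lipid hydrolases Plb1 was lower, from 150 to 47.8, and Pnliprp2 higher, from 47.3 to 94.8. Dgat2, which makes triglycerides, was higher, from 104 to 162. None of 10 enterocyte markers passed the rule. Fabp6 was lower, from 278 to 69.2, with 2 of 5 ileal markers past the rule, and 3 of 8 T cell and intraepithelial lymphocyte markers were lower. Fibroblast Dcn, from 19.9 to 8.43, Paneth cell Mmp7, from 6.64 to 3.20, and the proliferation marker Mki67, from 93.1 to 59.8, were lower as well. Mmp7, with few reads, was 1 of 5 Paneth genes and Mki67 1 of 4 crypt and proliferation genes within the filter. The other Paneth genes were not past the rule, and Ang4, from 116 to 165, and Itln1, from 258 to 265, went the other way. The part of these markers in the differences of Ces1f and Ces2a was not tested.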

How the data were processed

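Per the labels' protocols, RNA from enterocytes or small intestine was made into 3′ tag libraries with a unique molecular identifier module. DESeq2 2.11.40 and HTSeq 0.91, besides HISAT2 2.1.0, Trimmomatic 0.38.1 and build mm10, are named in the submitters' processing notes. Settings, identifier use and counting strand are not given in the sources used here. The deposited values are a signal already normalised by the authors, in 2 tables of 24420 features. They were whole multiples of 1 step per library to within 1e-06, so reads were recovered, with less certainty for enterocyte libraries WT 4 and null 3. Reads may not be independent molecules.

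Genes at 5 or more in at least 4 enterocyte or 3 intestine libraries entered. Log2(value + 1) of enterocytes was fitted by limma 3.58.1 (R 4.3.3) with its trend option and 2-sided tests, a scale that understates the change of low genes. Intestine was described by the fold rule and by 95% intervals from the exact binomial (Clopper-Pearson) interval of the null share of summed reads. Limits for 0 reads use 3 counts. Alternatives were 21 settings for enterocytes, with edgeR 4.0.16 and DESeq2 1.42.0 on recovered reads among them, and 14 for intestine. Named genes were all members, list genes that were called or needed as regulators, and the 5 most similar genes. The 19 lists hold other pathways and markers of cell types and regions; endothelial and exocrine pancreas markers gave 0 calls in both experiments. Members and lists were chosen with earlier results of these data known. The procedures were tested on simulated data.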

Additional observations from a re-analysis of the deposited data

Results flagged for a closer look

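In WT intestine, WT 1 lay apart from the other 3 WT libraries for Ces1d, at 1.92 normalised reads, and for Ces1g, at 0.960. Each WT library held 2 reads of Ces1d and 1 read of Ces1g, so the values differ only by the size factor. Of 29 groups checked 2 were set apart in this way, and chance does so for about 1 group in 20.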

How the results depend on the processing

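In enterocytes 5 members were called lower, and 4 to 7 under the 21 alternatives, with 0 called higher in each. Aadac, Ces1d and Ces1e were called in every alternative that tested them, Ces2a in 20 of 21, Ces1f in 12 of 21, Ces2b in 6 of 20, and Ces2c and Ces2e in none. Ces2c ran from -0.051 (without WT 4) to 0.54 on leaving out 1 library, and turned to -0.31 by edgeR without the libraries of uncertain step. The number of genes called, 303, was 317 by edgeR and 430 by DESeq2 on recovered reads, 147 by limma without a trend, 146 with the regional score and 116 without null 3 and null 5. Leaving out 1 library gave 140 to 388, the lowest being 140 (WT 1), 173 (WT 2), 185 (null 3) and 199 (null 5 left out). The replicate block gave 229 genes and 4 members, but libraries of the same number did not vary together (r -0.12, -0.07, 0.21 and 0.09), so the numbers do not pair them. Null 5 had no WT partner and did not inform that fit. Leaving out null 3 and null 5, and the uncertain libraries in edgeR, were chosen after seeing the data. In intestine the 528 genes past the fold rule became 1134 at a ratio of 1.2, 191 at 2 and 238 with a minimum of 20. The 0 members past it became 2 at a ratio of 1.2 (Ces1f and Ces2a), 1 with no minimum (Ces1g), and 0 to 1 on leaving out 1 library (Ces1e, without WT 2). The cause of these shifts was not tested. Few reads limit Ces1c, Ces1d, Ces1g, Ces2b and Ces2c.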
